A study of Mus musculus with 12 samples.

Results

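The genes described here were 10 members of the matrix metalloproteinase (MMP) system: the proteases *Mmp8*, *Mmp9*, *Mmp12*, *Mmp13*, *Mmp14*, *Mmp19* and *Mmp25*, and the inhibitors *Timp1*, *Timp2* and *Timp3*. They were the rows of a table of 54532 genes whose symbol was 1 of these 10 names, and each name occurred once. Of the 27 genes of the table with an Mmp or Timp symbol, 14 had enough reads to be tested, and all 10 members were among them. The RNA was that of wild-type C57BL/6 mouse marrow cells, cultured for 5 days with GM-CSF and IL-6, cytokines that drive myeloid differentiation. Each of 3 groups held 4 RNA-seq libraries: vehicle (DMSO), 10 µM IPA and 50 µM IPA. IPA is indole-3-propionic acid, which gut bacteria make from tryptophan. For such cultures, the paper reports slightly reduced viability at the higher dose, which it calls supraphysiological. For that reason it focused its expression analysis on the lower dose. Whether reduced viability had a part in any value or call at 50 µM given below was not tested. All 3 groups shared the medium, the cytokines and the day of harvest, so that no group shows marrow cells without GM-CSF and IL-6. The labels do not say whether the 4 libraries of a group came from separate mice or cultures, and p-values then measure only the spread between these samples, which may be technical.

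Matrix metalloproteinases are zinc-dependent endopeptidases that cut collagens, elastin, other matrix proteins and many cytokines and surface receptors. Most are made as inactive proenzymes and gain activity when the propeptide is removed, often by plasmin, by a furin-like convertase or by another MMP. TIMPs, the tissue inhibitors of metalloproteinases, block the active site. In the myeloid lineage, neutrophils store MMP8 and MMP9 in granules, and macrophages secrete MMP12.

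Positions are those of the GRCm38 build, with GENCODE M21 genes. *Mmp13* (chr9:7272514-7283331), *Mmp12* (chr9:7344381-7369499) and *Mmp8* (chr9:7558456-7568485) lie on the plus strand in a run of 10 MMP genes between positions 7272514 and 7699585 of chromosome 9. Of that run, only *Mmp27* passed the filter beside these 3. The other members are spread over the genome: *Mmp9* at chr2:164940780-164955850, *Mmp14* at chr14:54431612-54445364, *Mmp19* at chr10:128790910-128800824, *Mmp25* at chr17:23628311-23645277, *Timp1* at chrX:20870166-20874735, *Timp2* at chr11:118301069-118355740 and *Timp3* at chr10:86300372-86349506. All are protein-coding. *Mmp25* and *Timp2* are on the minus strand. The counts are of reads in exons, summed per gene, so that they do not separate transcript isoforms.

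Promoters in RefSeq's table for GRCm38.p6 (250 bases before to 50 after each annotated start) were matched for 8 of the 10 members, with 2 starts for *Mmp12*. *Mmp9* and *Mmp19* had no entry. The 120 bases before the start are shown for *Mmp13* (chr9:7272394-7272513, plus strand) and for the second start of *Mmp12* (chr9:7347254-7347373, plus strand), which hold the AP-1 motif, and for *Timp1* (chrX:20870046-20870165, plus strand) and *Mmp14* (chr14:54431478-54431597, plus strand), which do not. AP-1 is the Fos and Jun family of transcription factors, long known as regulators of MMP promoters. Capitals mark matches to the AP-1 motif (TGANTCA) and to the TATA box (TATAAA).
Mmp13: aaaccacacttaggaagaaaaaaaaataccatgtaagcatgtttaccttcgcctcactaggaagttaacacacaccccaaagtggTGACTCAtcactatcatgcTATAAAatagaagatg
Mmp12, second start: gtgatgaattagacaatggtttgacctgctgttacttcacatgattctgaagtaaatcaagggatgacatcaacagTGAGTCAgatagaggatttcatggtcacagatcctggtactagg
Timp1: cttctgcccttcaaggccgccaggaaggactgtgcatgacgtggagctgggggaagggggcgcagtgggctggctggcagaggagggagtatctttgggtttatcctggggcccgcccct
Mmp14: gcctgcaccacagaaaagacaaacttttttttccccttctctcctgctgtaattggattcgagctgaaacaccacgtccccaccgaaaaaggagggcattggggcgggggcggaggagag

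The AP-1 letters read the same on both strands. They begin at -35 in the *Mmp13* window and at -44 in that of the second *Mmp12* start, counted from the annotated start. The TATA letters begin at -16 in the *Mmp13* window and at 5 bases into the second *Mmp12* transcript, and *Mmp8* holds them on the opposite strand at -3. These are 2 of the 9 member windows with the AP-1 letters and 3 with the TATA letters, against 7.81% and 13.6% of the 32851 windows of the table. The Ets core (GGAA, either strand) is in every member window, and in 96% of all windows. The 250 bases before the start were 40% G or C at the first *Mmp12* start, 39.6% at its second, 40.4% for *Mmp13* and 44.8% for *Mmp8*, below the lower quartile of all windows (45.2%). For *Timp2* (68%), *Mmp25* (66%) and *Timp3* (65.6%) they were above the upper quartile (61.2%). The matches describe these letters only. No binding was measured.

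The libraries held 20451312 to 28038612 counted reads, and each member had at least 161 reads in every library. Levels are given as CPM, the reads of a gene scaled to the size of its library, with TMM factors. For comparisons between genes they were divided by exon length (CPM per kb). Neutrophil and macrophage genes were abundant in every library. The stromal markers *Dcn* and *Lum* had at most 3 reads in any library, and *Col1a2*, *Col3a1*, *Pdgfra*, *Cxcl12* and *Postn* at most 15. Other stromal markers were detected in every library, with 22 to 58 reads for *Pdgfrb*, 23 to 99 for *Col1a1*, 46 to 206 for *Lepr*, 123 to 291 for *Acta2*, 337 to 1075 for *Mmp2*, 1060 to 2222 for *Pdpn* and 2932 to 8457 for *Thy1*. Tests were edgeR's quasi-likelihood tests over 14894 genes, each on the 8 libraries of 2 groups, and a gene was called where the Benjamini-Hochberg adjusted p was under 0.05. Both comparisons with vehicle use the same 4 vehicle libraries, so that a vehicle library that is high or low moves both. No library was a copy of another. Vehicle replicates 3 and 4 held more of the neutrophil marker genes than the other vehicle libraries, with 14474 and 16476 CPM summed over 7 genes of mature neutrophils against 10992 and 11478.

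With vehicle, the proteases *Mmp8* and *Mmp12* had the highest levels of the 10 genes. *Mmp8* stood at 566 ± 59.3 CPM per kb and *Mmp12* at 435 ± 17.0 (SD, n = 4). These 2 made up on average 77.8% of the CPM per kb summed over all Mmp genes of the table, *Mmp2* and other non-members included. *Mmp9* followed at 163 ± 14.2, *Mmp14* at 51.2 ± 4.53 and *Mmp19* at 37.2 ± 4.02 CPM per kb, with no overlap between neighbours. *Timp2* (16.7), *Timp1* (16.4), *Mmp13* (14.3) and *Mmp25* (13.8) overlapped each with the next, and *Timp3* was lowest at 2.44 ± 0.36 CPM per kb. At 10 µM, *Mmp8* (674 ± 12.4) and *Mmp12* (593 ± 57.9) still led without overlap. At 50 µM they stood at 630 ± 22.3 and 617 ± 59.4 CPM per kb, and their libraries overlapped. *Mmp13* was the eighth gene in the order with vehicle and the sixth at both doses. *Mmp14* was above *Mmp19* with vehicle and at 10 µM, and at 50 µM both overlapped at 41.9 ± 3.17 and 44.2 ± 4.10 CPM per kb. Summed per kb over all Mmp and all Timp genes of the table, non-members included, the proteases exceeded the inhibitors 36.4 ± 2.14 times with vehicle. The values were 33.9 ± 2.39 times at 10 µM and 40.3 ± 1.63 times at 50 µM. The 10 genes took 0.574%, 0.727% and 0.740% of all counted reads in the 3 groups.

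**Figure D1:**
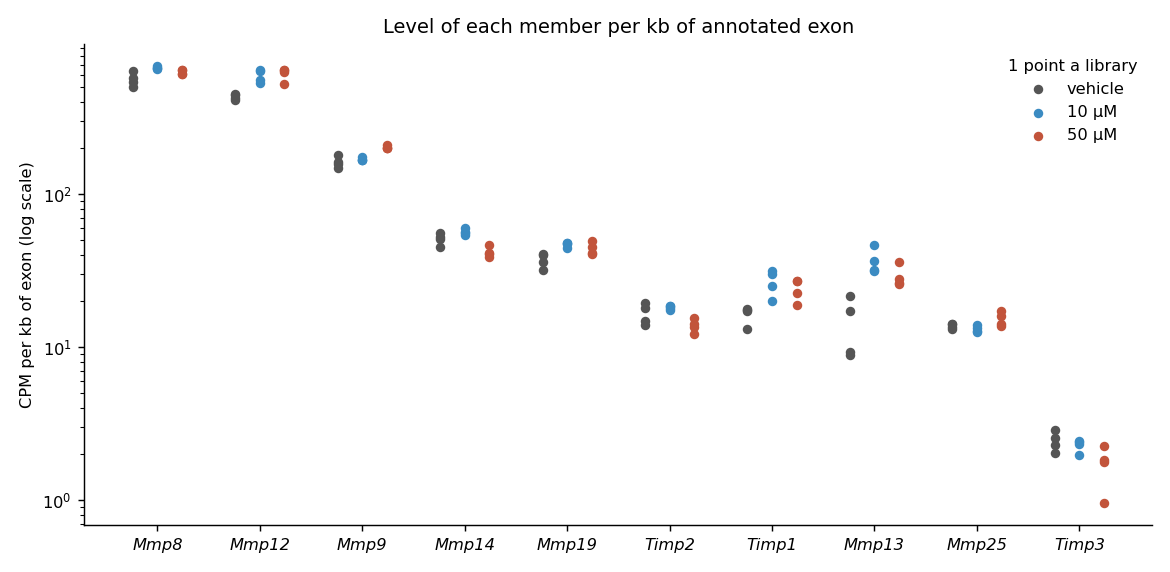
Level of each member in CPM per kb of exon (log axis), with 1 point for each of the 12 libraries, coloured by group, and genes ordered by their mean with vehicle. *Mmp8* and *Mmp12* lie above 400 CPM per kb in every library, and *Timp3* lies below 3.

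At 50 µM IPA, 4 members rose and 1 fell against vehicle. *Mmp12*, *Mmp13*, *Mmp9* and *Timp1* were higher, by 1.42, 2.03, 1.26 and 1.47 times, and *Mmp14* was lower, at 0.823 of its vehicle level. These 5 of 10 compare with 13.5% of all genes tested, and the members were chosen with earlier results of these data known. The median log2 fold change of the 10 was 0.21, against 0.01 over all genes. At 10 µM, *Mmp12* alone was called (1.36 times), where 0.410% of all genes were called. An unadjusted p under 0.05 from edgeR was found for 5 of the 10, beside 1308 of all 14894 genes. Of the 10, 5 (*Mmp8*, *Mmp12*, *Mmp13*, *Mmp19* and *Timp1*) had all 4 libraries at 10 µM above all 4 vehicle libraries, where 6.13% of all genes had groups that did not overlap. At 50 µM, 4 (*Mmp9*, *Mmp12*, *Mmp13* and *Timp1*) had all 4 libraries above vehicle, beside 20.0% of all genes. Between the doses, *Mmp9* was higher at 50 µM than at 10 µM, and *Mmp14* and *Timp2* were lower, so that 3 of 10 were called, against 15.4% of all genes. Groups did not overlap between the doses for these 3 and for *Mmp8*, which was lower at 50 µM, beside 20.3% of all genes. Single libraries moved these counts. At 10 µM, 4 members were called without vehicle replicate 4, 2 without replicate 4 of the 10 µM group, and none without vehicle replicate 1 or 2 or without replicate 1, 2 or 3 of the 10 µM group. Other settings moved the count at 10 µM as well: DESeq2 and edgeR without a filter on low counts each called *Mmp12*, *Mmp13*, *Mmp19* and *Timp1*, the fit on all 12 libraries and that with an exon length offset each called 3, and limma-voom and a minimum of 10 counts in every library each called 2. With the replicate number as a block in the fit, no member was called at 10 µM. At 50 µM against vehicle, 8 were called without vehicle replicate 4, and 3 without replicate 2 or 3 of the 50 µM group. Between the doses, 5 were called without replicate 1 of the 50 µM group.

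**Figure D2:**
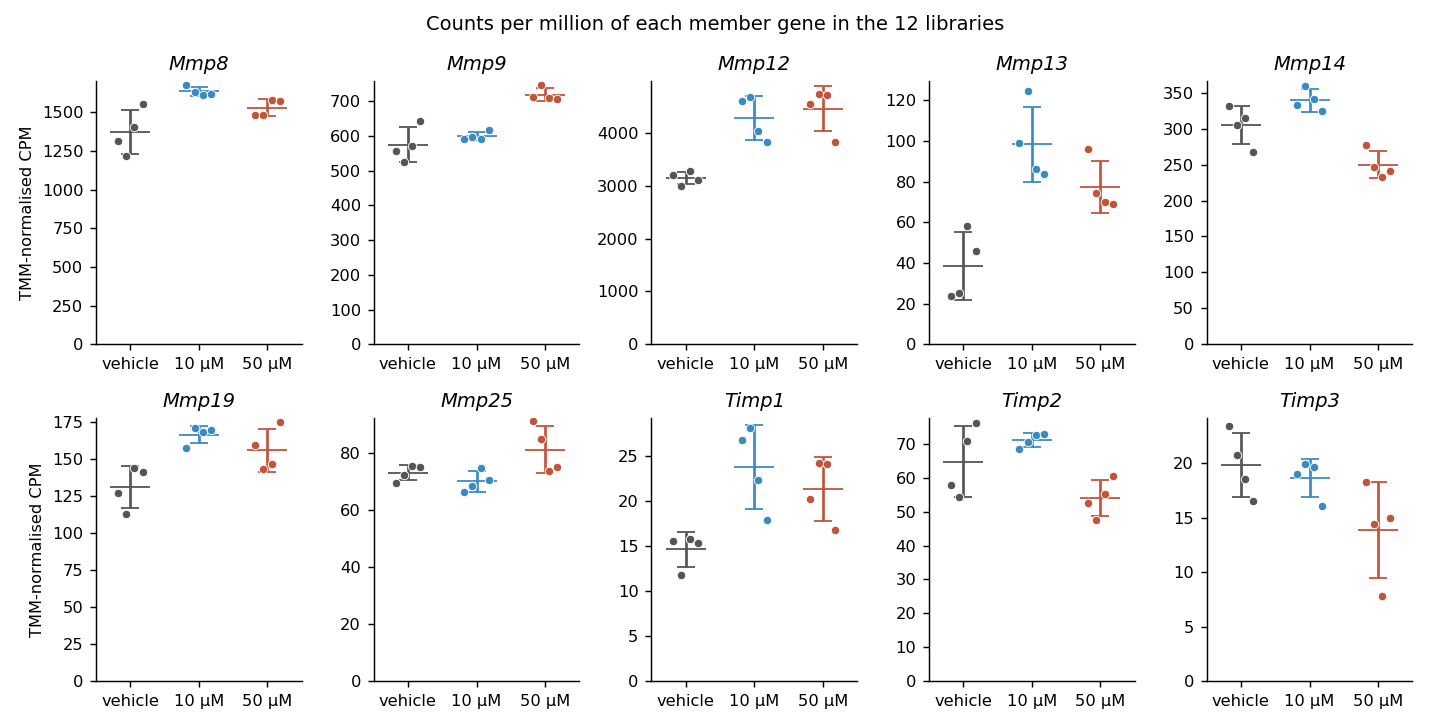
TMM-normalised CPM of each member in the 12 libraries (4 per group, linear axes from 0), with the mean and SD of each group as a line and bars. *Mmp12*, *Mmp13* and *Timp1* are higher at both doses than in every vehicle library, *Mmp9* is high at 50 µM, and *Mmp14* and *Timp2* are lower at 50 µM than at 10 µM.

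*Mmp12*, macrophage metalloelastase, stood at 3214, 3002, 3282 and 3105 CPM in the 4 vehicle libraries. It stood at 4608, 4692, 4038 and 3841 CPM at 10 µM, and at 4558, 4738, 4729 and 3830.5 CPM at 50 µM. Every IPA library was above every vehicle library, and replicate 4 was the lowest of its group at both doses. The log2 fold change was 0.45 at 10 µM (SE 0.07, edgeR adjusted p = 0.0311) and 0.51 at 50 µM (SE 0.08, edgeR adjusted p = 0.000987). Between the doses the difference was 0.06 on the log2 scale (95% interval -0.11 to 0.23, edgeR adjusted p = 0.677). The call at 50 µM was made in all 8 fits that left out 1 library. That at 10 µM was made in 2 of the 8. Its edgeR adjusted p was 0.128, 0.0909 and 0.0714 without vehicle replicates 1, 2 and 3, and 0.0958, 0.155 and 0.0871 without replicates 1, 2 and 3 of the 10 µM group. Of 8 other settings, 7 called *Mmp12* at 10 µM, and with the replicate block the call was lost (edgeR adjusted p = 0.233).

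*Mmp13*, collagenase 3, which cuts fibrillar collagen and is known from cartilage and bone, had the largest fold change of the 10 in both comparisons with vehicle. It stood at 23.9, 25.0, 58.2 and 46.0 CPM with vehicle, at 98.8, 124, 86.3 and 83.8 CPM at 10 µM, and at 96.0, 74.5, 70.0 and 69.1 CPM at 50 µM. The vehicle libraries spread more than 2-fold, replicates 3 and 4 being the higher, and still lay below every IPA library. The log2 fold change at 50 µM was 1.02 (SE 0.24, edgeR adjusted p = 0.0122), called in 8 of 8 fits without 1 library. At 10 µM it was 1.36 (SE 0.26), with an edgeR adjusted p of 0.0510, just above the threshold. It passed without vehicle replicate 3 (edgeR adjusted p = 0.0222) and without vehicle replicate 4 (0.0233), and did not in the other 6 such fits, up to 0.213 without replicate 2 of the 10 µM group. Of 8 other settings, 6 called it at 10 µM, DESeq2 with an adjusted p of 0.00680 and limma-voom with 0.0304. Between the doses the log2 difference was -0.34 (95% interval -0.60 to -0.08, edgeR adjusted p = 0.0715), and the libraries overlapped. This difference was called by 4 of 8 other settings, DESeq2 among them, and in 2 of 8 fits without 1 library.

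*Mmp8*, the collagenase of neutrophil granules, was not called in any comparison. It stood at 1314, 1217, 1403 and 1555 CPM with vehicle, at 1678, 1629, 1612 and 1619.9 CPM at 10 µM, and at 1484, 1479, 1579 and 1570.5 CPM at 50 µM. All libraries at 10 µM were above those of the other 2 groups, by a small margin. Its log2 fold change was 0.25 at 10 µM (95% interval 0.09 to 0.41, edgeR adjusted p = 0.244) and 0.16 at 50 µM (-0.01 to 0.34, edgeR adjusted p = 0.215). The highest vehicle value was that of replicate 4, and without it *Mmp8* was called at 10 µM (log2 fold change 0.32, edgeR adjusted p = 0.0300) and at 50 µM (0.23, edgeR adjusted p = 0.0315).

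*Mmp9*, gelatinase B, which cuts denatured collagen and type IV collagen, was higher at 50 µM only. Its vehicle libraries stood at 559, 525, 572 and 645 CPM, and the 10 µM libraries at 592, 597, 593 and 619 CPM, within the vehicle range. The 50 µM libraries stood at 713, 748, 710.2 and 708 CPM, above every other library. The log2 fold change was 0.33 against vehicle (SE 0.08, edgeR adjusted p = 0.0109) and 0.27 against 10 µM (SE 0.05, edgeR adjusted p = 0.00344), and both calls were made in 8 of 8 fits without 1 library. At 10 µM against vehicle it was 0.06 (95% interval -0.09 to 0.21, edgeR adjusted p = 0.892).

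*Mmp14* encodes MT1-MMP, a transmembrane enzyme that cuts collagen at the cell surface and activates proMMP2. It stood at 332, 305, 315 and 268 CPM with vehicle, at 332, 359.8, 341 and 324 CPM at 10 µM, and at 277, 247, 233 and 241 CPM at 50 µM. The 50 µM libraries were all below the 10 µM libraries, with a log2 difference of -0.44 (SE 0.07, edgeR adjusted p = 0.000306), called in 8 of 8 fits without 1 library. Against vehicle the log2 fold change at 50 µM was -0.28 (SE 0.08, edgeR adjusted p = 0.0363), and the groups overlapped through vehicle replicate 4 and 50 µM replicate 1. That call was made in 3 of 8 such fits. The edgeR adjusted p was 0.105 and 0.111 without vehicle replicates 1 and 3, and 0.0876, 0.0887 and 0.102 without replicates 2, 3 and 4 of the 50 µM group. At 10 µM against vehicle the log2 fold change was 0.15 (95% interval -0.01 to 0.31, edgeR adjusted p = 0.584).

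*Mmp25* encodes MT6-MMP (leukolysin), held in the membrane by a lipid anchor and known from neutrophils. Its vehicle libraries lay between 69.5 and 75.2 CPM, those at 10 µM between 66.3 and 74.6, and those at 50 µM at 91.0, 84.7, 73.6 and 75.1 CPM. Replicates 1 and 2 of the 50 µM group stood above every other library, and replicates 3 and 4 within the vehicle range. Its log2 fold change was 0.16 at 50 µM (95% interval -0.02 to 0.34, edgeR adjusted p = 0.225) and -0.06 at 10 µM (-0.20 to 0.08, edgeR adjusted p = 0.877). Between the doses the log2 difference was 0.22 (0.05 to 0.38, edgeR adjusted p = 0.0710). It was called in 1 of 8 fits without 1 library and by 1 of 8 other settings. *Mmp19*, a secreted enzyme that cuts basement membrane proteins, stood between 113 and 144 CPM with vehicle, between 158 and 171 at 10 µM, and between 143 and 175 at 50 µM. Its groups did not overlap at 10 µM (log2 fold change 0.34, SE 0.08, edgeR adjusted p = 0.108), and overlapped by less than 1 CPM at 50 µM (0.26, SE 0.09, edgeR adjusted p = 0.0910). Without vehicle replicate 4 it was called at both doses (edgeR adjusted p = 0.0450 and 0.0338). *Mmp19* shares 789 exon bases with *Tmem198b* of the opposite strand, which had 102 to 181 reads against 3019 to 4474.

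**Figure D3:**
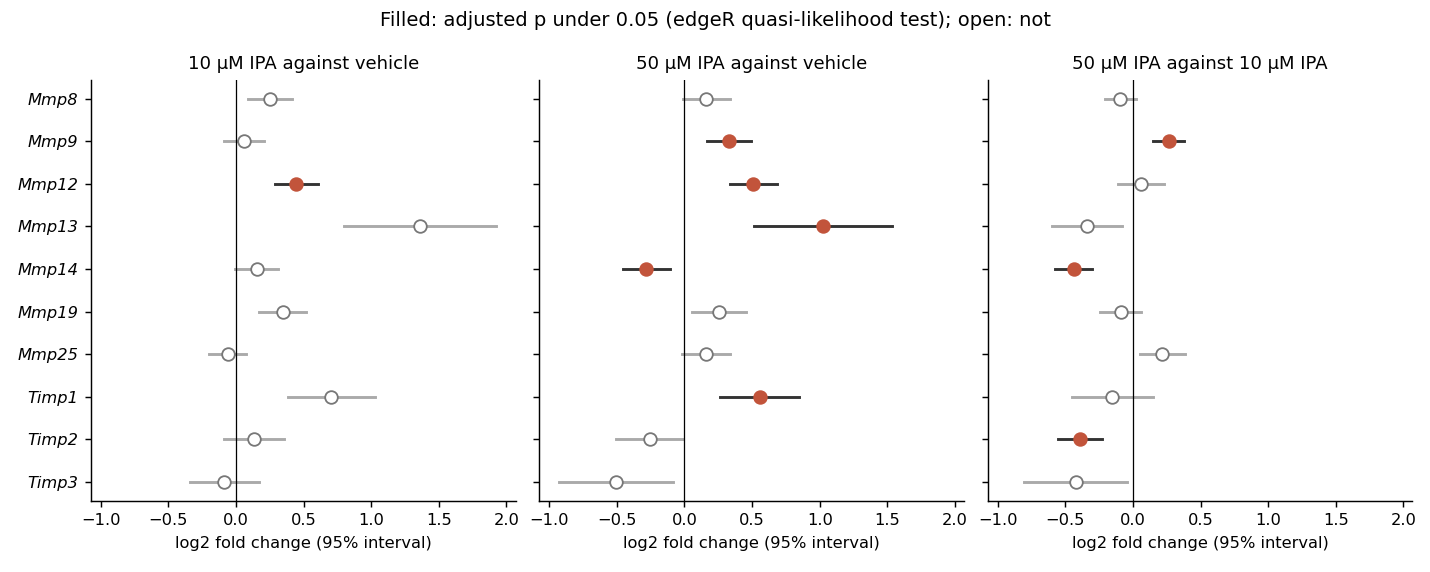
Log2 fold change of each member (points) with its 95% interval (lines) from edgeR, for the 3 comparisons, filled where the adjusted p was under 0.05. *Mmp13* has the largest values against vehicle, 1.36 and 1.02, and *Mmp14* and *Timp2* lie left of 0 between the doses, at -0.44 and -0.39.

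*Timp1*, a secreted inhibitor that also binds proMMP9, stood at 15.5, 11.8, 15.8 and 15.3 CPM with vehicle, at 26.8, 28.1, 22.3 and 17.9 CPM at 10 µM, and at 20.2, 24.2, 24.1 and 16.8 CPM at 50 µM. Every IPA library was above every vehicle library, and replicate 4 was again the lowest at both doses. At 50 µM its log2 fold change was 0.56 (SE 0.14, edgeR adjusted p = 0.0163), lost without replicate 2 (edgeR adjusted p = 0.0619) or replicate 3 of that group (0.0566). At 10 µM it was 0.70 (SE 0.15, edgeR adjusted p = 0.0780), and it was called without replicate 4 of that group (edgeR adjusted p = 0.0376) and by 4 of 8 other settings. The doses differed by -0.15 on the log2 scale (95% interval -0.45 to 0.15, edgeR adjusted p = 0.523). *Timp1* lies within *Syn1*, a gene of the opposite strand with 249 to 615 reads against 317 to 740 for *Timp1*. They share no exon base. *Syn1* was also called at 50 µM (log2 fold change 0.67, edgeR adjusted p = 0.00720). It was called between the doses as well (0.51, edgeR adjusted p = 0.0135), where *Timp1* was not. Whether reads of one were counted for the other was not tested.

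*Timp2*, which binds MMP14 at the cell surface and takes part in the activation of proMMP2, stood at 57.9, 54.4, 70.8 and 76.4 CPM with vehicle. It stood at 68.5, 70.6, 72.7 and 72.9 CPM at 10 µM, and at 52.7, 47.6, 55.3 and 60.6 CPM at 50 µM. All 50 µM libraries were below all 10 µM libraries, and the vehicle libraries spread over both. The log2 difference between the doses was -0.39 (SE 0.08, edgeR adjusted p = 0.00260), called in 8 of 8 fits without 1 library. Against vehicle it was -0.26 at 50 µM (95% interval -0.50 to -0.01, edgeR adjusted p = 0.163) and 0.13 at 10 µM (-0.09 to 0.36, edgeR adjusted p = 0.812). *Mmp14* and *Timp2* were thus both lower at 50 µM than at 10 µM, and neither was called between 10 µM and vehicle.

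*Timp3*, which binds to the matrix and also inhibits ADAM17, had the fewest reads, 161 to 619 per library. It lay between 16.6 and 23.4 CPM with vehicle, between 16.1 and 19.9 at 10 µM, and at 18.3, 14.4, 7.82 and 15.0 CPM at 50 µM. Replicate 3 of the 50 µM group was the lowest of the 12 libraries. The log2 fold change at 50 µM was -0.51 (95% interval -0.93 to -0.08, edgeR adjusted p = 0.109), and without vehicle replicate 4 it was called (edgeR adjusted p = 0.0426). *Timp3* shares 1733 exon bases with *Syn3* of the opposite strand, which had 12 to 49 reads.

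**Figure D4:**
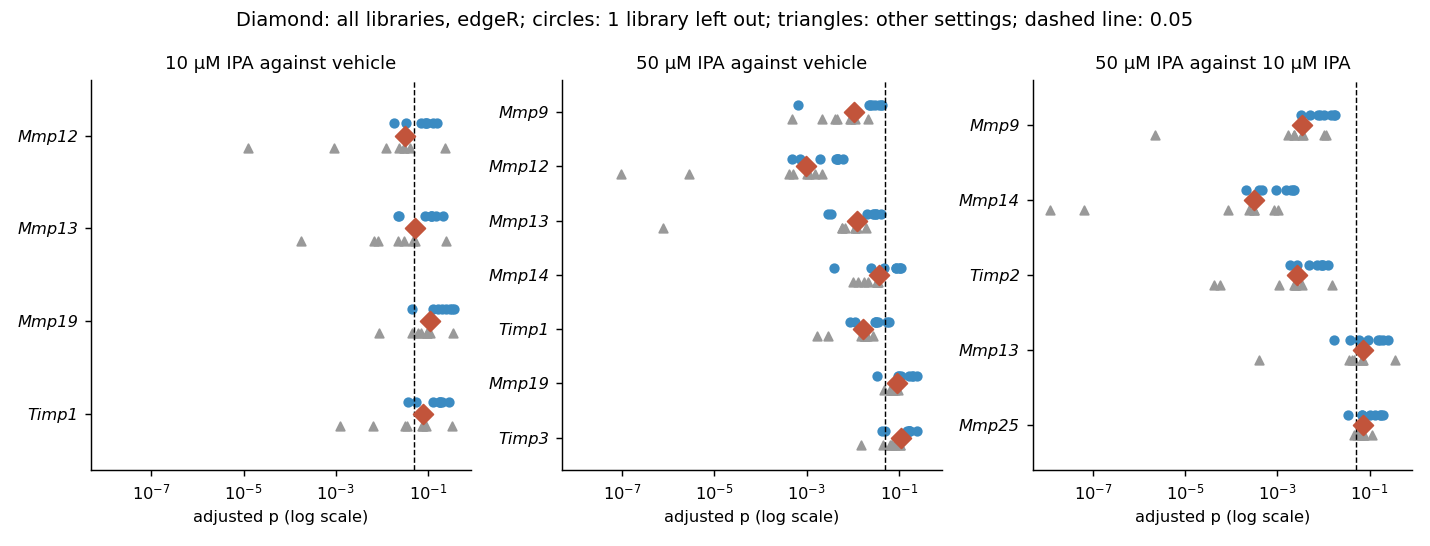
Adjusted p (log axis) of the members called, and of those with an adjusted p under 0.12, in the 3 comparisons. Diamonds are edgeR's test on all 8 libraries, circles leave out 1 library each, triangles are the 8 other settings, and the dashed line is 0.05. The circles of *Mmp9*, *Mmp12* and *Mmp13* at 50 µM against vehicle all lie left of the line, and most of those of *Mmp12* at 10 µM lie right of it.

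Of the MMP and TIMP genes that were not members, 4 passed the filter. *Mmp2*, gelatinase A, whose proenzyme is activated by MMP14 with TIMP2, stood at 21.8, 15.1, 19.1 and 14.2 CPM with vehicle and between 15.4 and 21.1 CPM at 10 µM. At 50 µM it stood at 41.3, 39.1, 36.2 and 45.1 CPM, above all other libraries. It rose at 50 µM, with a log2 fold change of 1.21 against vehicle (SE 0.13, edgeR adjusted p = 6.74e-05) and 1.18 against 10 µM (SE 0.10, edgeR adjusted p = 1.78e-06). At 10 µM against vehicle the value was 0.02 (edgeR adjusted p = 0.986). *Mmp2* thus rose where *Mmp14* fell. It is also a marker of stromal cells, and of 14 such genes 7 were tested: *Mmp2* and *Thy1* (log2 fold change 0.77) rose and *Lepr* (-1.24) fell at 50 µM against vehicle, and *Thy1* was called lower at 10 µM (-0.35), a call lost without vehicle replicate 1 or 3 or any 1 library of the 10 µM group. Between the doses *Mmp2* and *Thy1* (1.12) were higher at 50 µM, and *Lepr* (-1.21), *Acta2* (-0.66) and *Pdpn* (-0.66) were lower. The summed level of the 14, *Mmp2* included, was 252 to 311 CPM with vehicle, 258 to 269 at 10 µM and 382 to 463 at 50 µM. Without *Mmp2* and *Thy1*, left out after their values were seen, the sum of the other 12 was 66.6 to 97.6, 97.2 to 102 and 55.0 to 68.3 CPM. Of all genes, 0.410% were called at 10 µM, 13.5% at 50 µM against vehicle and 15.4% between the doses. The part of the stromal markers in the *Mmp2* value was not tested. *Mmp23*, a membrane protease, was higher at 50 µM against vehicle (1.86 and 0.747 CPM, log2 fold change 1.32, edgeR adjusted p = 0.0242). *Mmp27* (0.893, 1.42 and 1.31 CPM in the 3 groups) and *Mmp28* were not called. The other 13 had at most 12 reads in any library, among them the stromelysins *Mmp3* and *Mmp10* and the matrilysin *Mmp7*, and *Mmp1a*, *Mmp16*, *Mmp24* and *Timp4* had no read. *Mmp1b*, which shares 157 exon bases with *Mmp12*, had at most 4.

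Among the genes that activate or bind MMPs, none of the 8 tested genes of plasminogen activation was called by edgeR at 10 µM, where 4 had an unadjusted p under 0.05, DESeq2 called 2 and limma-voom 0. At 50 µM against vehicle, 2 rose and 1 fell. These 3 calls became 1 without vehicle replicate 1, and 5 with DESeq2 or with all 12 libraries in the fit. *Serpinb2*, an inhibitor of urokinase, rose from 188 ± 8.56 to 465 ± 61.6 CPM (log2 fold change 1.31, SE 0.09, edgeR adjusted p = 2.22e-06). *Plau*, urokinase itself, rose from 107 ± 12.6 to 139.8 ± 12.5 CPM (0.39, SE 0.09, edgeR adjusted p = 0.0144). *Serpine2*, a further serine protease inhibitor, fell by 0.36 on the log2 scale (edgeR adjusted p = 0.0253). Between the doses *Serpinb2* was higher at 50 µM (0.98), and *Anxa2* (-0.42) and *Serpine2* (-0.33) were lower. The convertases *Furin* and *Pcsk7* were tested and not called by edgeR, DESeq2 or limma-voom in any comparison, with 1 unadjusted p under 0.05, at 10 µM.

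Of 13 tested MMP partners at the cell surface, 2 rose and 3 fell at 50 µM against vehicle, and 3 were called in all without vehicle replicate 3 or without replicate 2 of the 50 µM group. At 10 µM edgeR called none, 4 had an unadjusted p under 0.05, DESeq2 called 1 and limma-voom 0. Without vehicle replicate 4, 1 partner and 1 gene of plasminogen activation were called at 10 µM. *Reck*, a membrane-anchored inhibitor of MMPs, fell from 11.2 ± 0.331 to 7.77 ± 1.37 CPM (log2 fold change -0.53, SE 0.13, edgeR adjusted p = 0.0183). *Cd44*, a hyaluronan receptor that docks MMP9 and MMP14, fell from 619.7 ± 29.1 to 487 ± 15.9 CPM (-0.34, SE 0.07, edgeR adjusted p = 0.00452). *Cldn1* fell as well (-0.64, edgeR adjusted p = 0.0119). The integrin chains *Itgam* (0.31) and *Itgb2* (0.25) rose. Between the doses, 5 of the 13 were lower at 50 µM and none higher (3 called without replicate 4 of the 50 µM group), with the largest difference in *Lrp1*, an endocytic receptor that clears MMPs and TIMPs (log2 difference -0.71, SE 0.11, edgeR adjusted p = 0.000360). *Bsg*, which encodes the MMP inducer CD147, was also lower (-0.41, SE 0.06, edgeR adjusted p = 0.000290).

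Of 9 tested ADAM proteases, *Adam17*, the TNF-converting enzyme that TIMP3 inhibits, fell at 50 µM from 239 ± 6.73 to 180.4 ± 8.79 CPM (log2 fold change -0.40, SE 0.07, edgeR adjusted p = 0.00148). *Adam8* rose (0.24, edgeR adjusted p = 0.0424). The count of 2 became 1 when vehicle replicate 1 or replicate 2 or 4 at 50 µM was left out. Between the doses *Adamts10* was higher at 50 µM (0.83, edgeR adjusted p = 0.0236) and *Adam17* lower (-0.51, edgeR adjusted p = 3.73e-05), and 1 of the 9 was called with replicate 2 at 10 µM or replicate 2, 3 or 4 at 50 µM left out. At 10 µM edgeR called none, 2 had an unadjusted p under 0.05, DESeq2 called 1 and limma-voom 0. Of 14 tested matrix genes, 2 rose at 10 µM: *Spp1*, osteopontin (1751 ± 452 to 3285 ± 187 CPM, log2 fold change 0.91, edgeR adjusted p = 0.0311), and *Fn1*, fibronectin (1451 ± 132 to 2554 ± 382 CPM, 0.82, edgeR adjusted p = 0.0102). The count was 0 with vehicle replicate 1 or replicate 2 at 10 µM left out, and 1 with replicate 1, 3 or 4 at 10 µM left out. With the replicate block, the calls of *Spp1* and *Fn1* at 10 µM were lost. At 50 µM against vehicle 3 rose and 2 fell, with *Col5a1* (1.85) and *Lama5* (1.82) highest and *Nid2* (-1.12) lowest. Between the doses 2 of the 14 were higher at 50 µM, *Lama5* (1.77, edgeR adjusted p = 4.54e-06) and *Col5a1* (1.33, 1.13e-05), and 5 were lower, among them *Nid2* (-1.29), *Vcan* (-0.96), *Fn1* (-0.59, edgeR adjusted p = 0.00195) and *Lamc1* (-0.34).

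Of 20 transcription factors known from MMP promoters, edgeR called none at 10 µM, 6 had an unadjusted p under 0.05, DESeq2 called 2 and limma-voom 0. At 50 µM against vehicle 2 rose and 2 fell, and 7 were called without vehicle replicate 4. *Batf3*, of the AP-1 family, rose from 6.43 ± 0.731 to 14.7 ± 1.08 CPM (log2 fold change 1.20, SE 0.12, edgeR adjusted p = 3.55e-05). *Ets1* fell from 97.6 ± 9.97 to 57.4 ± 4.89 CPM (-0.76, SE 0.09, edgeR adjusted p = 0.000165). *Etv4* rose (1.49, from 0.905 CPM) and *Cebpe*, a factor of granulocyte maturation, fell (-0.31, edgeR adjusted p = 0.0231). Between the doses 2 of the 20 were higher at 50 µM, *Etv4* (1.25, edgeR adjusted p = 0.0168) and *Batf3* (0.54, 0.00381). The 3 that were lower were *Fosl1* (-0.84, edgeR adjusted p = 0.00822), *Ets1* (-0.57, 0.000448) and *Junb* (-0.18, 0.0389), and 3 of these 20 factors were called in all with replicate 2 at 50 µM left out. The median log2 fold change of the 20 was 0.04 at 10 µM and -0.10 at 50 µM against vehicle, beside -0.01 and 0.01 over all genes. In the 3 comparisons (10 µM against vehicle, 50 µM against vehicle and between the doses), 0.410%, 13.5% and 15.4% of all genes were called. An unadjusted p under 0.05 from edgeR was found for 1308, 4159 and 4393 of the 14894 genes. These are the background for each list count above and below.

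The 5 tested neutrophil primary granule genes all fell at 50 µM against vehicle, where 13.5% of all genes were called. Their summed level was 1624 to 2347 CPM with vehicle, 1538 to 1719 at 10 µM and 776 to 1109 at 50 µM. Of 7 secondary and gelatinase granule genes, 1 fell at 10 µM (*Chil3*, log2 fold change -0.33, edgeR adjusted p = 0.0394, with no gene of the list called in 7 of the 8 fits without 1 library, all but that without vehicle replicate 4) and 5 fell at 50 µM, with sums of 18965 to 22381, 15537 to 17383 and 13672 to 16654 CPM. At 10 µM DESeq2 called 3 of these 7 and 1 of the 5 primary granule genes, limma-voom called 1 and 0, and 5 and 2 had an unadjusted p under 0.05. Of 7 mature neutrophil genes, 3 fell at 50 µM against vehicle (5 without replicate 3 of the 50 µM group). These were *Il1b*, *Cxcr2* and *Csf3r*, at 262, 131 and 151 CPM with vehicle. The sums of the 7 were 10992 to 16476, 10975 to 12174 and 8511 to 12754 CPM, so that genes that were not called made up most of them. Of the MMP genes of neutrophil granules, *Mmp8* was not called at 50 µM and *Mmp9* rose.

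Of 13 macrophage markers, 4 rose at 10 µM (*Mrc1*, *Gpnmb*, *C1qb* and *Lpl*), and at 50 µM against vehicle 3 rose (*Gpnmb*, *Lpl* and *Adgre1*) and 4 fell, among them *Apoe* (-1.37), *Cd163* (-1.25) and *Mrc1* (-0.69). The 4 calls at 10 µM became 0 or 1 in 7 of the 8 fits without 1 library, all but that without vehicle replicate 4. DESeq2 called 7 at 10 µM and limma-voom 4, and 9 had an unadjusted p under 0.05. Between the doses 3 of the 13 were higher at 50 µM and 8 lower, *Mrc1* by a log2 difference of -1.32. Their summed level was 4248 to 4775 CPM with vehicle, 5434 to 6181 at 10 µM and 6538 to 6853 at 50 µM. Without *Lpl* and *Gpnmb*, left out after their values were seen, the sum of the other 11 was 2035 to 2238, 2422 to 2663 and 2074 to 2216 CPM. The osteoclast markers *Atp6v0d2* (log2 fold change 0.77, edgeR adjusted p = 0.0163) and *Acp5* (0.71, edgeR adjusted p = 0.0375) rose at 10 µM, 2 of 8 tested, where DESeq2 called 3 and limma-voom 2. The count of 2 became 0 when vehicle replicate 1 or replicate 2 at 10 µM was left out, and 1 when vehicle replicate 2 or replicate 1, 3 or 4 at 10 µM was. At 50 µM against vehicle 3 of the 8 rose and *Dcstamp* fell (-0.39), and between the doses *Ctsk* (-1.01) and *Dcstamp* (-0.70) were lower at 50 µM. Of 6 B cell markers, 5 rose at 50 µM, from a sum of 19.3 to 27.7 CPM to one of 37.9 to 60.9. Of 6 mast cell and basophil markers 1 fell at 50 µM against vehicle, beside 13.5% of all genes. That count was 2 with DESeq2, and without vehicle replicate 1, 2 or 4 or without replicate 3 of the 50 µM group. For the other lists of this paragraph, the shares of all genes called were 0.410% at 10 µM, 13.5% at 50 µM against vehicle and 15.4% between the doses. Of 5 endothelial markers edgeR, DESeq2 and limma-voom called none against vehicle. An unadjusted p under 0.05 was found for 3 of them at 10 µM and 0 at 50 µM, beside 1308 and 4159 of all 14894 genes. In RNA from a mixed culture, fewer cells of a type and less RNA per cell cannot be told apart, and the part of the cell types in the member values was not tested.

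**Figure D5:**
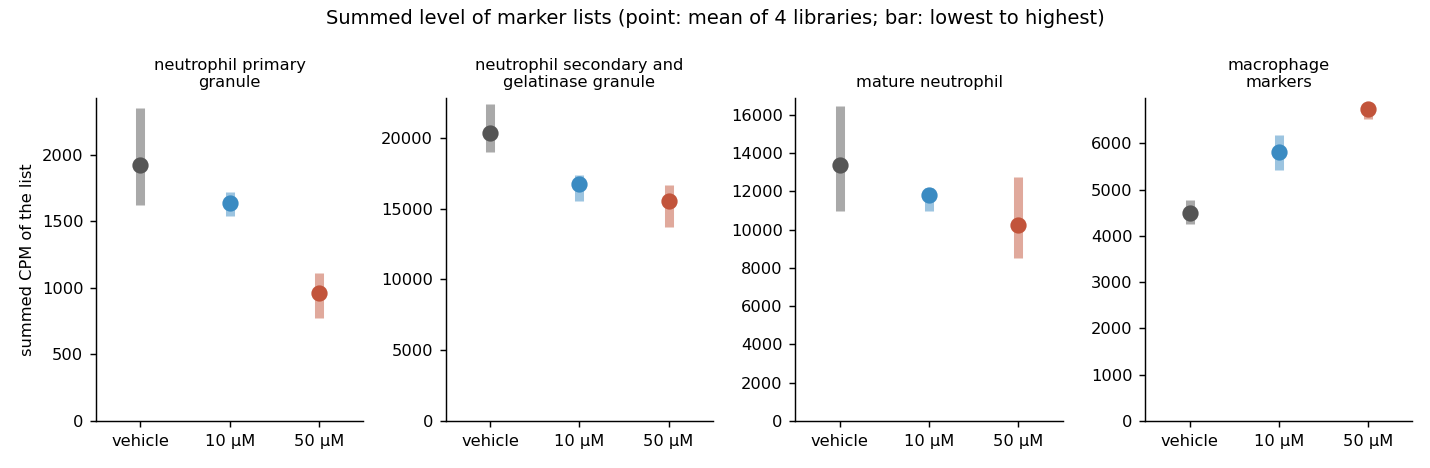
Summed CPM of 4 marker lists with vehicle, 10 µM and 50 µM IPA (points are means of 4 libraries, bars run from the lowest to the highest library, axes from 0). The neutrophil primary granule sum lies at or below 1109 CPM at 50 µM and at or above 1538 in the other groups. The macrophage sum over all 13 markers is higher at each dose than with vehicle, and over the 11 other than *Lpl* and *Gpnmb*, which is not drawn, it is 2074 to 2216 CPM at 50 µM and 2035 to 2238 with vehicle.

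The genes whose log2 CPM over the 12 libraries was most like that of each called member were sought among the 12597 genes that averaged at least 1 CPM. The points share the 3 groups, so that any gene with the same order of groups scores high. For *Mmp12* these were *Tnfsf4* (Pearson r = 0.960), *Serpinb6a* (0.937) and the chemokine *Ccl7* (0.936). For *Mmp13* they were *Rnf128* (r = 0.962), *Bin1* (0.960) and *Igf1* (0.941), and for *Timp1* *Crip1* (0.949), *Tlr13* (0.934) and *Pde8b* (0.912). *Mmp9* was most like *Phyh* (0.957), the desaturase *Scd1* (0.957) and *Aldh1l2* (0.956). *Mmp14* was most like *Met* (0.983), the receptor of hepatocyte growth factor, the Notch ligand *Jag1* (0.967) and *Nrp2* (0.964). *Timp2* was most like *Afg3l2* (0.965), *Asprv1* (0.957) and *Map2k1* (0.955).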

How the data were processed

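Reads were trimmed by the authors (Atropos), mapped to mm10 (hisat2 2.2.1) and assigned to genes of Ensembl (featureCounts 2.0.1). The deposited values are raw counts, without normalization or filter. The strand setting of the counting is not given in the sources used here. The titles of replicates 2 and 3 of the 10 µM group give the same replicate number with different codes in brackets, and the number was taken from the library name. No column was left unmapped.

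Genes above 0.5 CPM in at least 2 of the 12 libraries were tested (14894). Each pair of groups was compared on its 8 libraries with edgeR 4.0.16 (TMM, glmQLFit, glmQLFTest) under R 4.3.3. Values of p were adjusted over the whole table (Benjamini-Hochberg), and the threshold was 0.05. SEs are the fold change over the root of F. CPM per kb used exon lengths of GENCODE M21, present for 14889 tested genes. The code was tested on simulated data. The labels do not say whether same-numbered libraries share a marrow donor, and the main tests treat them as unpaired. Same-numbered libraries deviated together with r between -0.24 and 0.14, and 2 of 12 pairs were over 0.1. Such values cannot exclude a shared donor. The paper used repeated-measures ANOVA for its flow cytometry of such cultures.

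The members, gene lists and tests were chosen with earlier results of these data known. One gene of the planned lists is not reported here, and the counts and sums of its list leave it out. Named genes are the members, other tested MMP and TIMP genes, genes overlapping a member, up to 6 called genes (mean of at least 1 CPM) per list and comparison, and the 3 genes most like each called member. Alternatives were DESeq2 1.42.0, limma-voom (limma 3.58.1), DESeq2 size factors, omitting the filter, requiring 10 counts in every library, all 12 libraries, a replicate block, an exon length offset (lowess, span 0.3) and leaving out each library. Promoter letters were searched in RefSeq's table for GRCm38.p6. Counting error weighs more on genes with few reads, such as *Mmp28* (3 to 24 per library) and *Mmp23* (11 to 56), than on the members (at least 161). The number of libraries also limits the precision.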

Additional observations from a re-analysis of the deposited data

Results flagged for a closer look

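Of 30 groups of 4 libraries, 10 members in 3 groups, 2 held a library far from the other 3 (by Dixon's ratio of the gap to the range), and chance gives about 1 in 20. *Mmp9* stood at 748 CPM in replicate 2 of the 50 µM group, against 708 to 713 in the others (gap over range 0.860). Its call at 50 µM against vehicle was made without that library too (edgeR adjusted p = 0.0424). *Timp1* stood at 11.8 CPM in vehicle replicate 2, against 15.3 to 15.8 in the others (0.864).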

How the results depend on the processing

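Against vehicle at 10 µM, where edgeR called 1 member, DESeq2 called 4, limma-voom 2, edgeR without a filter 4, with at least 10 counts in every library 2, with all 12 libraries 3 and with the exon length offset 3. Over all genes the 61 calls became 250 with DESeq2, 150 without a filter, 118 with all 12 libraries and 102 with the offset. The labels link samples across groups only by a replicate number, and whether it marks a pair is not known. With the replicate block no member was called at 10 µM, neither matrix gene was, and 3 of all genes were. The block left the 50 µM and between-dose calls of the members in place, added *Timp3* at 50 µM (adjusted p = 0.0444) and *Mmp13* between the doses (0.0357), and in 4 of 12 pairs a library deviated most like its own number. Leaving out 1 library gave 0 to 4 member calls at 10 µM and 4 to 122 calls over all genes, 3 to 8 member calls and 1248 to 2689 over all genes at 50 µM, and 3 to 5 member calls between the doses. The highest counts against vehicle, 4 and 8 members, were those without vehicle replicate 4. Between the doses, edgeR without a filter and with the offset each called 5 members in place of 3. One direction reversed: *Timp3* at 10 µM ranged from -0.16 (without vehicle replicate 4) to 0.0048 on the log2 scale (without vehicle replicate 1, adjusted p = 1.000). Of the member fold changes under the other settings, 218 stayed on the same side of the threshold, 21 moved past it and 1 lost it. The cause of these changes was not tested. With 4 libraries a group, the spread between libraries limits the smaller differences.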
